A study of Homo sapiens with 16 samples.

Results

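The genes described here encode 9 core factors of nonsense-mediated mRNA decay: UPF1, UPF2, UPF3A, UPF3B, SMG1, SMG5, SMG6, SMG8 and SMG9. They were chosen by symbol in the short-read tables of both cell lines, where they are 9 of 61906 genes and account for 92 of 251295 listed transcripts. All 9 passed the filter on low counts in both lines. In HT-1080 cells depleted of HNRNPH1, UPF3B fell most among them, whereas in HEK-293T cells UPF3B did not pass the test. With all libraries SMG6 was the 1 factor that passed in HEK-293T (10.0% of all genes did), and it fell in HT-1080 too. Without 1 HNRNPH1-depleted HEK-293T library that stood apart, 7 factors passed there, against 61.8% of all genes.

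Nonsense-mediated decay removes mRNAs on which translation ends too early. UPF1 is an RNA helicase that is recruited to the terminating ribosome, and UPF2 links it to UPF3A or UPF3B, paralogues that can contact exon junction complexes left on the mRNA by splicing. The kinase SMG1, held in a complex with SMG8 and SMG9, phosphorylates UPF1; SMG6, an endonuclease, and SMG5, an adaptor to other decay enzymes, then act on the phosphorylated form. Several of the mRNAs that encode these factors are known targets of the pathway itself.

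The study depleted HNRNPH1, an RNA-binding regulator of splicing, in established human lines: HEK-293T, derived from embryonic kidney and carrying large T antigen of SV40, and HT-1080, derived from a fibrosarcoma. Cells received 20 nM of siRNA against HNRNPH1 (siHNRNPH1) or a negative control siRNA (siNegative), and RNA was taken 48 h later. Each of the 4 combinations of line and siRNA has 3 short-read libraries, which the labels call biological replicates, and 1 full-length cDNA (IsoSeq) pool. The sequences and number of the siRNAs are not given in the sources used here, so an effect of HNRNPH1 loss and an off-target effect of the reagent cannot be told apart.

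Libraries of HEK-293T held 107.7 to 121 M expected counts, and those of HT-1080 were shallower, at 27.3 to 32.7 M. HNRNPH1 lay at 1105 to 1121 CPM (expected counts relative to the library total in M) in HEK-293T siNegative and 234.1 to 394 CPM in siHNRNPH1, and at 606 to 635 CPM and 228 to 232 CPM in HT-1080. The summed level of 5 HEK-293T markers (PAX2, LHX1, LIN28B, NEFL, NEFM) was 498 to 525 CPM in HEK-293T siNegative, 582 to 793 CPM in HEK-293T siHNRNPH1, 142 to 150.1 CPM in HT-1080 siNegative and 116 to 120.4 CPM in HT-1080 siHNRNPH1. NEFM and LIN28B carried the sum in HEK-293T, and NEFM was at 0 in 5 of the 6 HT-1080 libraries. LHX1 and NEFL went against the list: between the siNegative groups they were higher in HT-1080, by 2.03 and 0.94 on the log2 scale (edgeR adjusted p = 3.7e-08 and 1.2e-05). The part of this marker shift in the results was not tested, and in bulk RNA fewer cells of a type and less RNA per cell cannot be told apart. In each line 1 library stood apart, and it did so with RNA length, taken as the longest full-length model of a gene. HEK-293T siHNRNPH1 replicate 1 deviated from its group by a median of 0.77 on the log2 scale for genes whose longest full-length model is under 2 kb and by -0.55 for those of 4 kb or more. HT-1080 siNegative replicate 2 showed 0.19 and -0.11 for the same classes. The factors with a model of 4 kb or more did not all follow the trend in HEK-293T siHNRNPH1 replicate 1. SMG1 (-2.31) and UPF2 (-0.93) were lower there, and SMG6 (-0.03) and UPF1 (0.05) hardly deviated. SMG5 (0.42) and SMG9 (0.79) were higher. SMG9 is in this class only through the HEK-293T siHNRNPH1 pool, whose longest model has 5264 nt. Its longest models in the other pools have 2290 nt (HEK-293T siNegative), 2852 nt (HT-1080 siNegative) and 2823 nt (HT-1080 siHNRNPH1). Genes of 2 to 4 kb had a median deviation of 0.12 in that replicate. Results are therefore given with and without these libraries, and the part that length plays in them was not tested.

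UPF3B (ENSG00000125351.14), the UPF3 paralogue known for its contact with exon junction complexes, lay at 22.3, 21.8 and 22.0 CPM with siNegative in HT-1080 and at 14.1, 12.8 and 13.5 CPM with siHNRNPH1. No siHNRNPH1 library reached the lowest control. The log2 fold change was -0.78 (SE 0.06, edgeR adjusted p = 2.8e-06), and it was -0.79 without siNegative replicate 2. In HEK-293T the values were 75.6, 75.4 and 74.8 CPM with siNegative and 67.3, 80.2 and 81.0 CPM with siHNRNPH1. Here the groups overlapped, because replicate 1 lay below and the others above the controls. The HEK-293T log2 fold change was -0.01 (SE 0.11, edgeR adjusted p = 0.959) with all libraries, 0.04 (edgeR adjusted p = 0.282) without siHNRNPH1 replicate 1, and 0.017 with library size as the only scaling.

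UPF3A (ENSG00000169062.15), the other paralogue, was lower with siHNRNPH1 in both lines. In HEK-293T its levels were 21.7, 22.4 and 21.2 CPM with siNegative and 16.4, 16.1 and 17.5 CPM with siHNRNPH1. HT-1080 libraries had 60.3, 64.3 and 66.8 CPM with siNegative and 53.4, 55.0 and 56.4 CPM with siHNRNPH1. Neither line showed overlap between its groups. The HT-1080 change passed the test at -0.29 (SE 0.05, edgeR adjusted p = 9.6e-04). The HEK-293T value of -0.41 (SE 0.11) missed it with all libraries (edgeR adjusted p = 0.0656) and passed it without siHNRNPH1 replicate 1, at -0.43 (edgeR adjusted p = 2.2e-07).

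UPF2 (ENSG00000151461.20), the bridge between UPF1 and UPF3, had fold changes of opposite sign in the lines. HT-1080 levels were 43.8, 40.1 and 42.8 CPM with siNegative and 48.4, 53.2 and 49.6 CPM with siHNRNPH1, all above the controls. This rise was 0.19 on the log2 scale (SE 0.06, edgeR adjusted p = 0.0144). It no longer passed without siHNRNPH1 replicate 2 (0.15, edgeR adjusted p = 0.0732) or in the fit of all 12 libraries (0.18, edgeR adjusted p = 0.512). That fit takes the spread of a gene from both lines, so HEK-293T siHNRNPH1 replicate 1 enters it. The part of that replicate in HT-1080 calls lost there was not tested. In HEK-293T, siNegative libraries had 73.8, 75.8 and 71.1 CPM and siHNRNPH1 libraries 36.5, 68.7 and 72.0 CPM. Replicate 1 alone was far below the rest, and the value of -0.35 (SE 0.25, edgeR adjusted p = 0.421) became -0.12 (SE 0.04, edgeR adjusted p = 0.00678) without it.

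UPF1 (ENSG00000005007.13), the helicase at the centre of the pathway, stayed within a narrow band of 138 to 171 CPM over all 12 libraries. HEK-293T libraries had 146, 144 and 138 CPM with siNegative and 165, 171 and 149.5 CPM with siHNRNPH1, so the groups did not overlap. The log2 fold change of 0.15 (SE 0.12, edgeR adjusted p = 0.463) did not pass, nor did 0.11 without siHNRNPH1 replicate 1 (edgeR adjusted p = 0.0839). HT-1080 values overlapped, at 162, 145 and 158 CPM against 155, 158 and 157 CPM. The fold change there was -0.05 (SE 0.05, edgeR adjusted p = 0.331). It was 0.014 with library size as the only scaling, and -0.10 (edgeR adjusted p = 0.00141) without siNegative replicate 2.

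**Figure D1:**
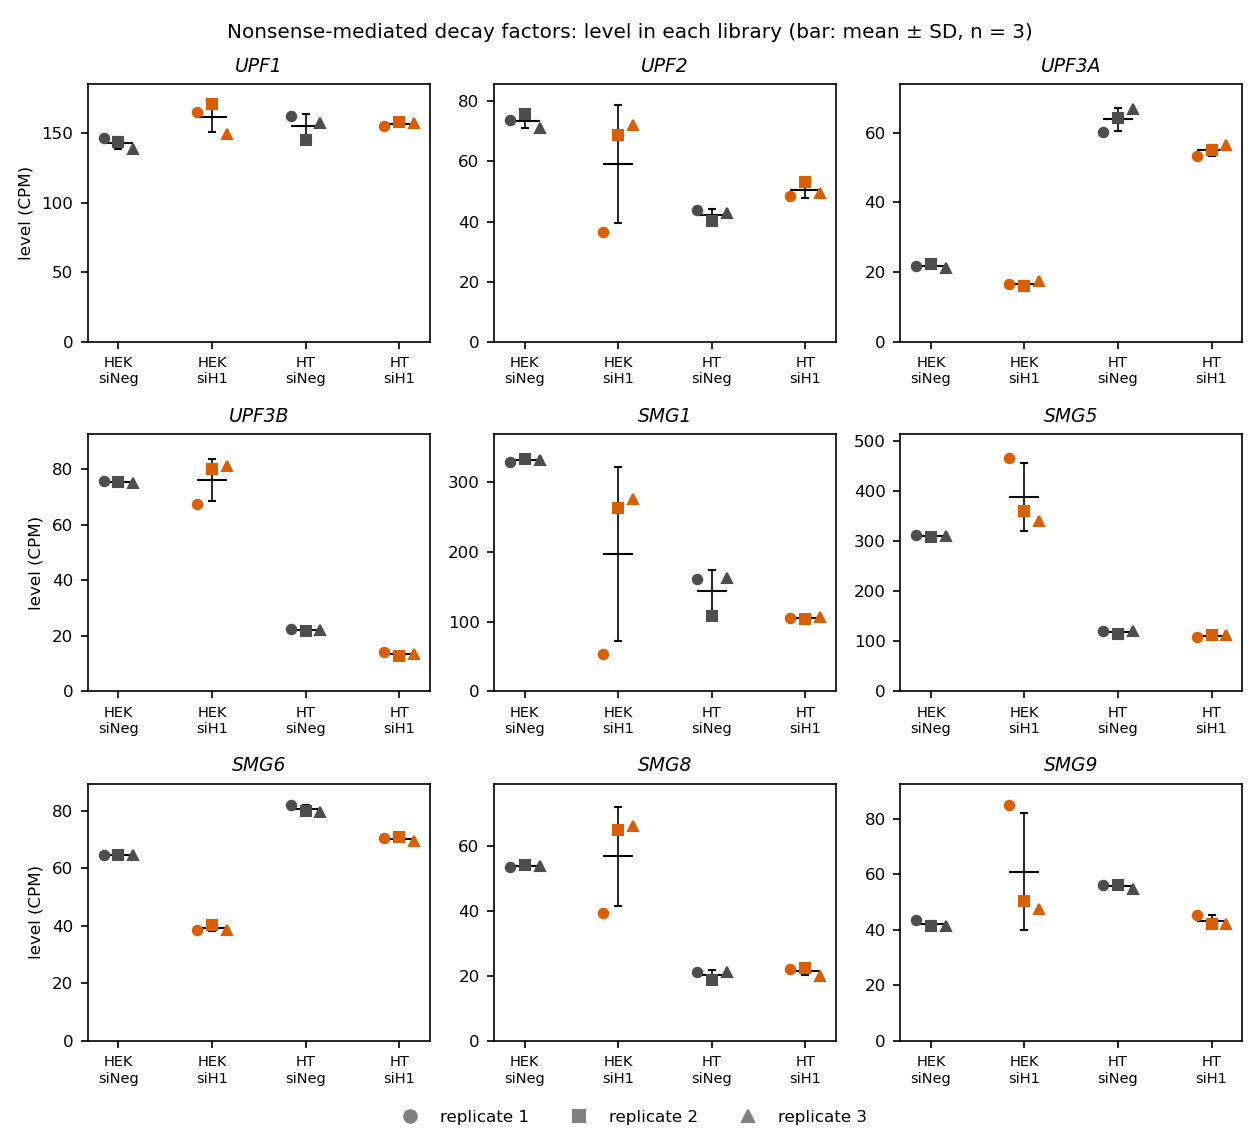
Level of each factor in CPM (vertical axis, from 0) in every short-read library, with the groups on the horizontal axis (HEK and HT for the lines, siNeg for siNegative, siH1 for siHNRNPH1); marker shapes are the replicate numbers, and the bar is the mean ± SD of 3 libraries. Replicate 1 of HEK-293T siHNRNPH1 lies apart for SMG1, UPF2, SMG8, SMG9 and SMG5, while for SMG6 all 3 libraries lie between 38.5 and 40.3 CPM.

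The kinase SMG1 (ENSG00000157106.18) was the factor on which the libraries that stood apart weighed most. HEK-293T siNegative libraries had 329, 334 and 332 CPM, and siHNRNPH1 libraries had 53.6, 264 and 276 CPM. Replicate 1 deviated from the mean of the other 2 by -2.31 on the log2 scale. With it the change was -0.79 (SE 0.56, edgeR adjusted p = 0.42), and without it -0.36 (SE 0.03, edgeR adjusted p = 4.4e-10). In HT-1080, the control libraries had 161, 108 and 162 CPM and the siHNRNPH1 libraries 105, 103 and 106 CPM. Here control replicate 2 lay close to the siHNRNPH1 level. The change was -0.52 (SE 0.13, edgeR adjusted p = 0.00501) with it and -0.69 (SE 0.03, edgeR adjusted p = 4.8e-19) without it; the call was lost in the fit of all 12 libraries (edgeR adjusted p = 0.403). RSEM shares reads between near copies, and 7 genes named as SMG1 pseudogenes summed to 98.5 to 101 CPM in HEK-293T siNegative and 38.2 to 118.2 CPM in siHNRNPH1, and to 41.1 to 52.6 CPM and 36.7 to 42.0 CPM in HT-1080. SMG1 values are therefore uncertain.

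SMG9 (ENSG00000105771.14), which with SMG8 forms the regulatory pair of the kinase complex, differed in direction between the lines. HT-1080 levels were 56.1, 56.3 and 54.8 CPM with siNegative and 45.5, 42.2 and 42.3 CPM with siHNRNPH1, a fall of 0.43 on the log2 scale (SE 0.05, edgeR adjusted p = 4.4e-05). The fit of all 12 libraries, in which HEK-293T enters the spread, did not call it (edgeR adjusted p = 0.163). In HEK-293T they were 43.4, 41.5 and 41.4 CPM against 85.2, 50.4 and 47.4 CPM. Every siHNRNPH1 library was above the controls, replicate 1 by far the most. The value was 0.52 (SE 0.27, edgeR adjusted p = 0.286) with replicate 1 and 0.16 (SE 0.04, edgeR adjusted p = 0.00113) without it. SMG8 (ENSG00000167447.13) had HEK-293T levels of 53.5, 54.4 and 54.1 CPM with siNegative and 39.4, 65.1 and 66.4 CPM with siHNRNPH1. Its value of 0.04 (SE 0.20, edgeR adjusted p = 0.916) rested on these opposite deviations and became 0.23 (SE 0.03, edgeR adjusted p = 5.5e-06) without replicate 1. SMG8 did not pass in HT-1080, with 21.3, 18.8 and 21.1 CPM against 22.2, 22.4 and 20.0 CPM (log2 fold change 0.01, edgeR adjusted p = 0.899; -0.04 without siNegative replicate 2).

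Among the enzymes and adaptors that act after phosphorylation, SMG6 (ENSG00000070366.14) was the 1 factor called in both lines with all libraries. The endonuclease lay at 64.5, 64.7 and 64.5 CPM with siNegative in HEK-293T and at 38.6, 40.3 and 38.5 CPM with siHNRNPH1. Replicate 1 did not stand apart for this gene. The fall was 0.75 (SE 0.11, edgeR adjusted p = 0.0151) on the log2 scale and 0.77 without replicate 1 (edgeR adjusted p = 3.2e-14). The call was lost in the 5 fits that left out another HEK-293T library, in which replicate 1 stayed, with an edgeR adjusted p of 0.0562 to 0.115 and a log2 fold change of -0.76 to -0.73. HT-1080 levels were 82.1, 79.8 and 79.6 CPM with siNegative and 70.3, 70.8 and 69.4 CPM with siHNRNPH1, and the fall was 0.27 (SE 0.04, edgeR adjusted p = 3.2e-04). SMG5 (ENSG00000198952.8) fell in HT-1080, from 119.8, 114.5 and 119.8 CPM to 108.5, 112 and 112 CPM, by 0.16 (SE 0.04, edgeR adjusted p = 0.00713), and was not called in the fit of all 12 libraries (edgeR adjusted p = 0.426). In HEK-293T it had 313, 308 and 311 CPM with siNegative and 467, 359 and 341 CPM with siHNRNPH1, with a value of 0.31 (SE 0.17, edgeR adjusted p = 0.328) that became 0.12 (SE 0.03, edgeR adjusted p = 0.00119) without replicate 1.

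Counted over the 9 factors, 1 (lower) passed the edgeR test in HEK-293T, where 10.0% of all genes tested did (5.12% higher and 4.88% lower). Without siHNRNPH1 replicate 1, 7 passed, 3 higher (SMG5, SMG8, SMG9) and 4 lower (UPF2, UPF3A, SMG1, SMG6), against 61.8% of all genes (30.5% higher and 31.3% lower). In HT-1080, 7 passed, 1 higher (UPF2) and 6 lower, against 65.3% of all genes (32.7% higher and 32.6% lower); without siNegative replicate 2 it was 8, with UPF1 lower as well, against 70.4% (34.9% higher and 35.5% lower). The median log2 fold change of the 9 was -0.01 in HEK-293T and -0.27 in HT-1080, beside 0.02 and 0.01 over all genes tested. In HEK-293T the CPM groups did not overlap for 6 factors, 3 higher and 3 lower, against 43.7% of all genes (22.7% higher and 21.0% lower). Without siHNRNPH1 replicate 1 it was 8, all but UPF2, against 73.5% (41.3% higher and 32.2% lower). In HT-1080 the groups did not overlap for 7, 1 higher and 6 lower, against 70.6% (39.9% higher and 30.6% lower), and for the same 7 without siNegative replicate 2, against 79.2% (44.4% higher and 34.8% lower).

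**Figure D2:**
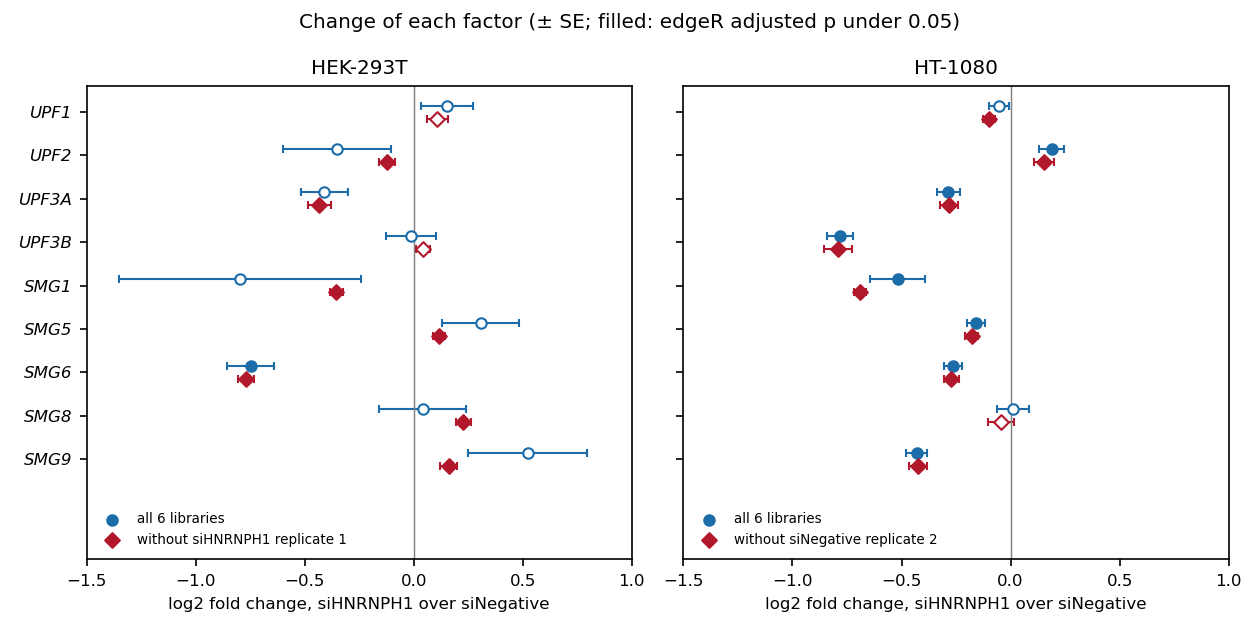
Log2 fold change (siHNRNPH1 over siNegative, horizontal axis) of each factor in HEK-293T (left) and HT-1080 (right), with bars of 1 SE; circles use all 6 libraries of the line, diamonds leave out the library that stood apart, and filled symbols have an edgeR adjusted p under 0.05. UPF3B lies at -0.78 in HT-1080 and near 0 in HEK-293T, and the SE of SMG1 in HEK-293T shrinks from 0.56 to 0.03 without replicate 1.

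Agreement between the lines was counted by the sign of the change. The share of all genes with the same sign was not computed, so the counts of factors cannot be called low or high. The log2 fold change had the same sign in both lines for 5 of 9 factors with all libraries, for 4 without HEK-293T siHNRNPH1 replicate 1 and for 3 without both libraries that stood apart. Those 3 were UPF3A, SMG1 and SMG6, and each passed the test in both lines in those fits. UPF2, SMG5 and SMG9 also passed in both, in opposite directions.

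The interaction of line and siRNA, fitted on all 12 libraries, passed for 3 factors, 1 higher and 2 lower, against 19.0% of all genes (8.13% higher and 10.8% lower). The difference, HT-1080 minus HEK-293T, was -0.84 for UPF3B (SE 0.11, edgeR adjusted p = 4.3e-04), 0.41 for SMG6 (SE 0.11, edgeR adjusted p = 0.0237) and -1.04 for SMG9 (SE 0.31, edgeR adjusted p = 0.0383). The positive value of SMG6 means a smaller fall in HT-1080. Without HEK-293T siHNRNPH1 replicate 1, 7 factors passed, against 49.0% of all genes (22.7% higher and 26.4% lower), and the same differences were -0.87, 0.45 and -0.64. The other 4 were UPF1 at -0.21, UPF2 at 0.26, SMG5 at -0.32 and SMG8 at -0.26. Without HT-1080 siNegative replicate 2 only UPF3B passed (12.4% of all genes; 5.26% higher and 7.15% lower), and the edgeR adjusted p was 0.0652 for SMG6 and 0.0837 for SMG9. UPF3A and SMG1 did not pass in any of these 3 fits.

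Levels with the control siRNA were also compared between the lines, and most genes tested differed there. Between the siNegative libraries, 8 of 9 factors passed, against 72.3% of all genes tested (34.1% higher and 38.2% lower); each line has its own deposited table, so line and table cannot be told apart. UPF3A was higher in HT-1080 by 1.78 (SE 0.09, edgeR adjusted p = 1.1e-08) on the log2 scale and UPF3B lower by a difference of -1.55 (SE 0.08, edgeR adjusted p = 1.45e-08), so the paralogues were inverted between the lines. SMG8 and SMG5 were also lower in HT-1080, at -1.18 and -1.17, as was UPF2 at -0.58. SMG9, SMG6 and UPF1 were higher there, by 0.63, 0.54 and 0.34. The difference for SMG1 was -0.98 (edgeR adjusted p = 0.0554). Without HT-1080 siNegative replicate 2, SMG9 no longer passed (0.59, edgeR adjusted p = 0.0664). Without HEK-293T siHNRNPH1 replicate 1, which enters this contrast through the shared spread, SMG1 passed as well (-0.97, edgeR adjusted p = 2.5e-05).

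Transcript usage, the percent of a gene's expected counts held by each transcript, showed its clearest shared movement at SMG9. ENST00000601170.5 held 37.3, 36.7 and 36.2% of SMG9 with siNegative in HEK-293T and 26.6, 29.1 and 26.2% with siHNRNPH1. HT-1080 libraries had 38.2, 42.0 and 39.6% against 30.2, 30.4 and 33.3%. In both lines every siHNRNPH1 library was below every control, with mean differences of -9.43 (HEK-293T) and -8.63 (HT-1080) percentage points. The transcript passed limma diffSplice in HT-1080 (adjusted p = 0.0035; 0.0096 without siNegative replicate 2) and, in HEK-293T, without siHNRNPH1 replicate 1 (adjusted p = 9.4e-06) but not with it (adjusted p = 0.64). ENST00000595700.5, named after its values were seen, held 7.9, 5.5 and 8.2% in HT-1080 siNegative and 9.8, 13.2 and 11.5% in siHNRNPH1 (limma diffSplice adjusted p = 0.0119; 0.088 without siNegative replicate 2). In HEK-293T it went from 2.5, 3.8 and 3.6% to 0.44, 7.7 and 7.6%, so replicate 1 went against the other 2.

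At UPF3A, ENST00000351487.5 held 21.2, 21.9 and 15.9% with siNegative in HT-1080 and 15.6, 12.1 and 8.6% with siHNRNPH1 (limma diffSplice adjusted p = 0.0033; 0.0498 without siNegative replicate 2). Its HEK-293T shares were 6.2, 7.5 and 9.3% against 6.6, 3.4 and 5.9%, which overlap. ENST00000619079.1 of UPF3A was higher with siHNRNPH1 in every library of both lines, with means of 25.4% and 28.5% in HEK-293T and 15.9% and 20.9% in HT-1080. It did not pass in either line (limma diffSplice adjusted p = 0.75 and 0.18). UPF3B was carried by ENST00000345865.6 (91.5 to 97.7% of the gene as group means). Its minor transcript ENST00000276201.7 held 3.3, 5.4 and 5.6% in HEK-293T siNegative and 9.9, 7.8 and 7.4% in siHNRNPH1, without overlap. The HEK-293T call of that transcript required leaving out replicate 1 (limma diffSplice adjusted p = 0.12 with it and 0.011 without). In HT-1080, where UPF3B has 385 to 667 counts per library, 2 of the 6 libraries had it at 0%.

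For UPF1 and SMG6, the differences in usage had opposite signs in the lines. The main UPF1 transcript ENST00000262803.10 held 75.9, 66.6 and 69.0% in HT-1080 siNegative and 77.1, 79.8 and 81.1% in siHNRNPH1 (limma diffSplice adjusted p = 0.0196; 0.0166 without siNegative replicate 2). HEK-293T went the other way, with 73.2, 75.5 and 72.4% against 45.4, 71.2 and 69.9%, a difference of -11.5 percentage points that was -3.1 without replicate 1. For SMG6, ENST00000263073.11 held 74.1, 75.3 and 73.8% with siNegative in HEK-293T and 32.9, 74.3 and 75.9% with siHNRNPH1. Only replicate 1 departed, and the difference of -13.3 percentage points was 0.71 without it. The fall of the SMG6 gene level in HEK-293T stood beside shares of its main transcript in replicates 2 and 3 that were within 3 percentage points of the controls. HT-1080 shares of the same transcript were 36.8, 33.2 and 42.8% against 46.8, 44.5 and 47.0% (limma diffSplice adjusted p = 0.0414; 0.0862 without siNegative replicate 2).

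Over the 9 factors, limma diffSplice called 0 in HEK-293T, where 8.56% of the genes tested were called, and 4 in HT-1080 (UPF1, UPF3A, SMG6, SMG9), where 19.6% were. At an unadjusted p under 0.05, UPF3B was the 1 factor in HEK-293T, against 22.1% of genes. Without HEK-293T siHNRNPH1 replicate 1, UPF3B and SMG9 were called (39.5% of genes). Without HT-1080 siNegative replicate 2, UPF1, SMG6 and SMG9 remained (18.3% of genes). A test on the arcsine square root of the shares called SMG9 in HEK-293T (limma adjusted p = 0.0465; 8.76% of genes) and UPF1 in HT-1080 (limma adjusted p = 0.0309; 8.94% of genes), and edgeR diffSpliceDGE called 0 in either line, against 5.12% of genes in each. At an unadjusted p under 0.05 diffSpliceDGE had UPF1 in HEK-293T (11.8% of genes) and 0 factors in HT-1080 (11.3% of genes). No transcript of the 9 genes was called in both lines with all libraries. SMG1, SMG5, UPF2 and SMG8 were each dominated by 1 transcript, with group means from 89.2 to 99.2%.

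**Figure D3:**
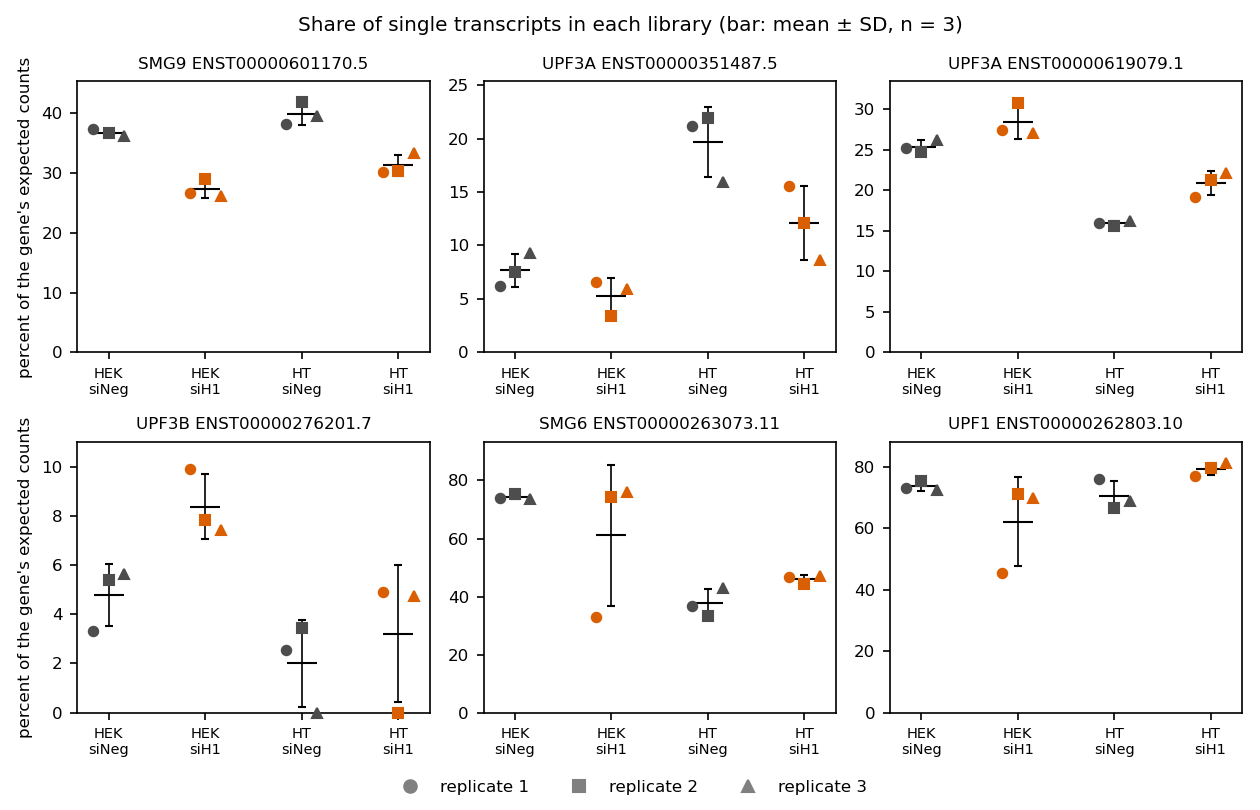
Percent of the gene's expected counts held by single transcripts (vertical axis, from 0) in every library, by group (abbreviated as HEK or HT with siNeg or siH1); shapes are replicate numbers and the bar is the mean ± SD of 3 libraries. SMG9 ENST00000601170.5 is lower with siHNRNPH1 in every library of both lines, whereas the HEK-293T differences for SMG6 and UPF1 come mostly from replicate 1.

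The full-length models give another view of the same loci, without read counts, and abundant and rare isoforms weigh the same in them. The pools held 60 (HEK-293T siNegative), 98 (HEK-293T siHNRNPH1), 60 (HT-1080 siNegative) and 40 (HT-1080 siHNRNPH1) models of the 9 genes, out of 64705, 94847, 72186 and 68078 models. SMG5 was best covered, with 30, 45, 12 and 11 models in that order. UPF1 had 0 models in either HEK-293T pool, although its short-read level was 138 to 171 CPM there, and SMG1 had 0 in the HT-1080 siHNRNPH1 pool. With 1 pool per group there is no test. Only SMG5 (chromosome 1, build GRCh38.p13) had at least 10 models spanning a junction in all pools. At its intron from 156263571 to 156265780 (minus strand), 1 of 3 junctions tied when same-direction changes were ranked by the smaller of the 2 lines' differences (1.67 percentage points), 28 of 30 and 40 of 44 HEK-293T models carried the splice (siNegative and siHNRNPH1), as did 11 of 12 and 9 of 10 HT-1080 models. The exact Clopper-Pearson 95% intervals were 77.9 to 99.2% and 78.3 to 97.5% in HEK-293T and 61.5 to 99.8% and 55.5 to 99.7% in HT-1080, all overlapping, and they cover counting error only. The junctions tied with it, 156263571 to 156264313 and 156264444 to 156265780, lie on either side of an exon inside this intron. Each was carried by 1 of 12 and 1 of 10 HT-1080 models. The HT-1080 difference thus rests on the number of spanning models and shows no agreement between the lines. Some of the same-direction junctions differed more in HEK-293T: the intron from 156253509 to 156260450, singled out after its values were seen, was carried by 1 of 30 siNegative models (interval 0.084 to 17.2%) and 11 of 45 siHNRNPH1 models (12.9 to 39.5%). In HT-1080 it was carried by 1 of 12 and 1 of 11 models.

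The same models show the shared architecture of the UPF3 paralogues. UPF3A lies on chromosome 13 between 114281583 and 114305814 (plus strand) and UPF3B on chromosome X between 119833214 and 119853012 (minus strand), as outer limits of the models. Of their internal exons, 6 have equal lengths in the same order: 107, 107, 99, 111, 161 and 295 nt. The exon of 99 nt, a multiple of 3, was skipped by 4 of 14 UPF3A models that span it (chromosome 13, 114286302 to 114286400) and by 3 of 15 UPF3B models (chromosome X, 119845198 to 119845296). An exon of 39 nt in UPF3B (chromosome X, 119840646 to 119840684) was present in 2 of 15 models, 1 in each HEK-293T pool. These exons were singled out after the models were seen, and the pools are too thin to compare the siRNAs.

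**Figure D4:**
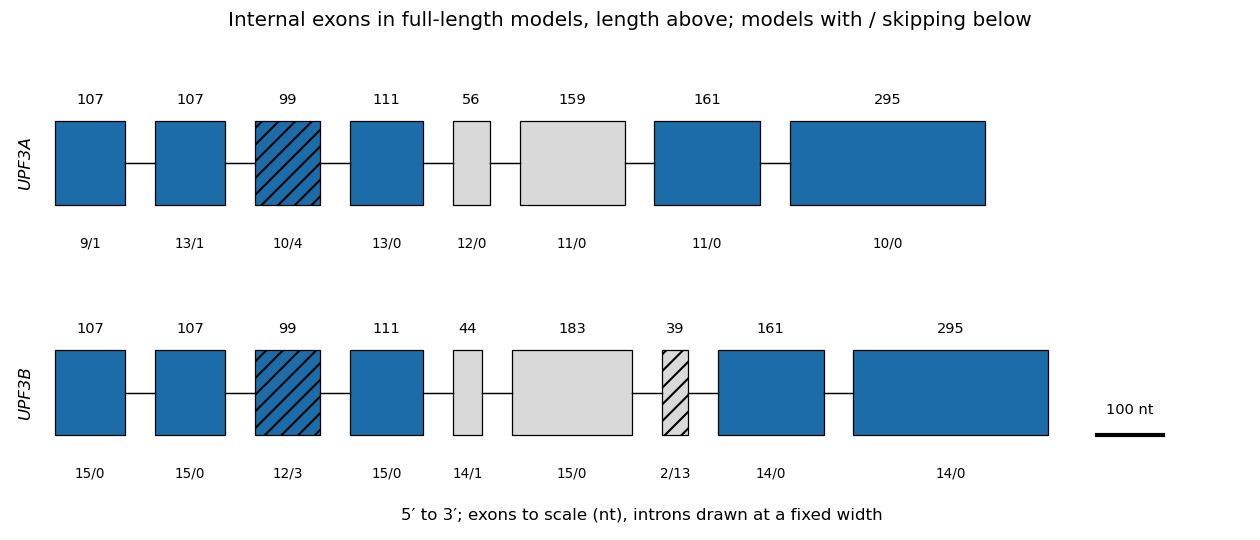
Internal exons of UPF3A (above) and UPF3B (below) in the full-length models of all 4 pools, 5′ to 3′ and drawn to scale in nt with introns at a fixed width; blue exons have lengths that occur in both genes, hatched exons were skipped by more than 1 model, and the pair of numbers under each exon gives the models with it and those that skip it. The 99 nt exon is skipped in both genes, by 4 and by 3 models.

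Partners of the pathway were followed in lists fixed with earlier results known. Their counts are to be read against the shares of all genes given above: 32.7% higher and 32.6% lower in HT-1080 (34.9% and 35.5% without siNegative replicate 2), and 5.12% higher and 4.88% lower in HEK-293T (30.5% and 31.3% without siHNRNPH1 replicate 1). In the exon junction complex, the marker of spliced mRNA that UPF3B reads, 5 of 6 genes fell in HT-1080, against 32.6% of all genes lower. Without siNegative replicate 2 it was also 5. The median log2 fold change was -0.39 with that library and -0.34 without it. In HEK-293T 1 of 6 fell, against 4.88%. Without HEK-293T siHNRNPH1 replicate 1 that became 3 lower and 1 higher. RBM8A, a core subunit, fell in both lines. It had 266, 276 and 272 CPM against 200.1, 174 and 173 CPM in HEK-293T (log2 fold change -0.60, edgeR adjusted p = 0.0439) and 97.5, 103 and 97.6 CPM against 70.8, 71.9 and 71.7 CPM in HT-1080 (-0.54, edgeR adjusted p = 4.3e-06). MAGOHB, a paralogue of its partner MAGOH singled out after its values were seen, fell by 1.18 in HT-1080 and had 0.16 in HEK-293T (edgeR adjusted p = 0.467). That difference of -1.41 passed (edgeR adjusted p = 2.0e-04).

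Of 7 other effectors and regulators, 2 rose and 3 fell in HT-1080 and 1 fell in HEK-293T; without HEK-293T siHNRNPH1 replicate 1, 4 rose and 2 fell. The HT-1080 counts are near the share of all genes. NBAS, a regulator that also acts in vesicle transport, fell in both lines. HEK-293T libraries had 53.1, 55.9 and 55.3 CPM against 17.3, 25.96 and 27.1 CPM (log2 fold change -1.26, edgeR adjusted p = 0.0151; -1.10 without replicate 1). HT-1080 libraries had 41.3, 36.0 and 43.4 CPM against 37.8, 34.5 and 35.2 CPM, groups that overlap through siNegative replicate 2 (-0.23, edgeR adjusted p = 0.0164; -0.31 without it). The fall was larger in HEK-293T, by 0.96 (edgeR adjusted p = 0.0041). Among 5 genes that assemble kinases such as SMG1, 3 fell in HT-1080 (32.6% of all genes) and 0 passed in HEK-293T (10.0% of all genes; edgeR; 1 rose and 1 fell without replicate 1). TELO2, a chaperone cofactor of these kinases singled out after its values were seen, fell by 0.88 in HT-1080. It had 0.94 in HEK-293T (SE 0.35, edgeR adjusted p = 0.156) and differed between the lines by -1.91 (SE 0.39, edgeR adjusted p = 0.0065). The HEK-293T value and the difference include siHNRNPH1 replicate 1, whose part in them was not tested. Release factors had 1 higher and 1 lower of 3 in HT-1080, near the share of all genes, and 0 in HEK-293T (edgeR; 1 and 1 without replicate 1).

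RNAs known to be degraded by the pathway were called in both directions. Of 13, 1 rose and 0 fell in HEK-293T (edgeR); without replicate 1, 6 rose and 3 fell. In HT-1080, 3 rose and 6 fell (5 and 6 without siNegative replicate 2), against 32.7% and 32.6% of all genes. Their median log2 fold change was 0.42 in HEK-293T with all libraries, 0.02 without replicate 1 and -0.09 in HT-1080. GADD45B, a stress-induced gene, was called in both lines in opposite directions. It had 2.8, 2.6 and 3.0 CPM against 10.6, 6.8 and 6.2 CPM in HEK-293T (log2 fold change 1.49, edgeR adjusted p = 0.0236; 1.17 without replicate 1) and 40.9, 45.2 and 37.9 CPM against 22.5, 24.2 and 25.9 CPM in HT-1080 (-0.84, edgeR adjusted p = 1.1e-05). For GADD45B the interaction was -2.41 (edgeR adjusted p = 3.4e-04). These levels reflect transcription as well as decay, and decay itself was not measured.

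**Figure D5:**
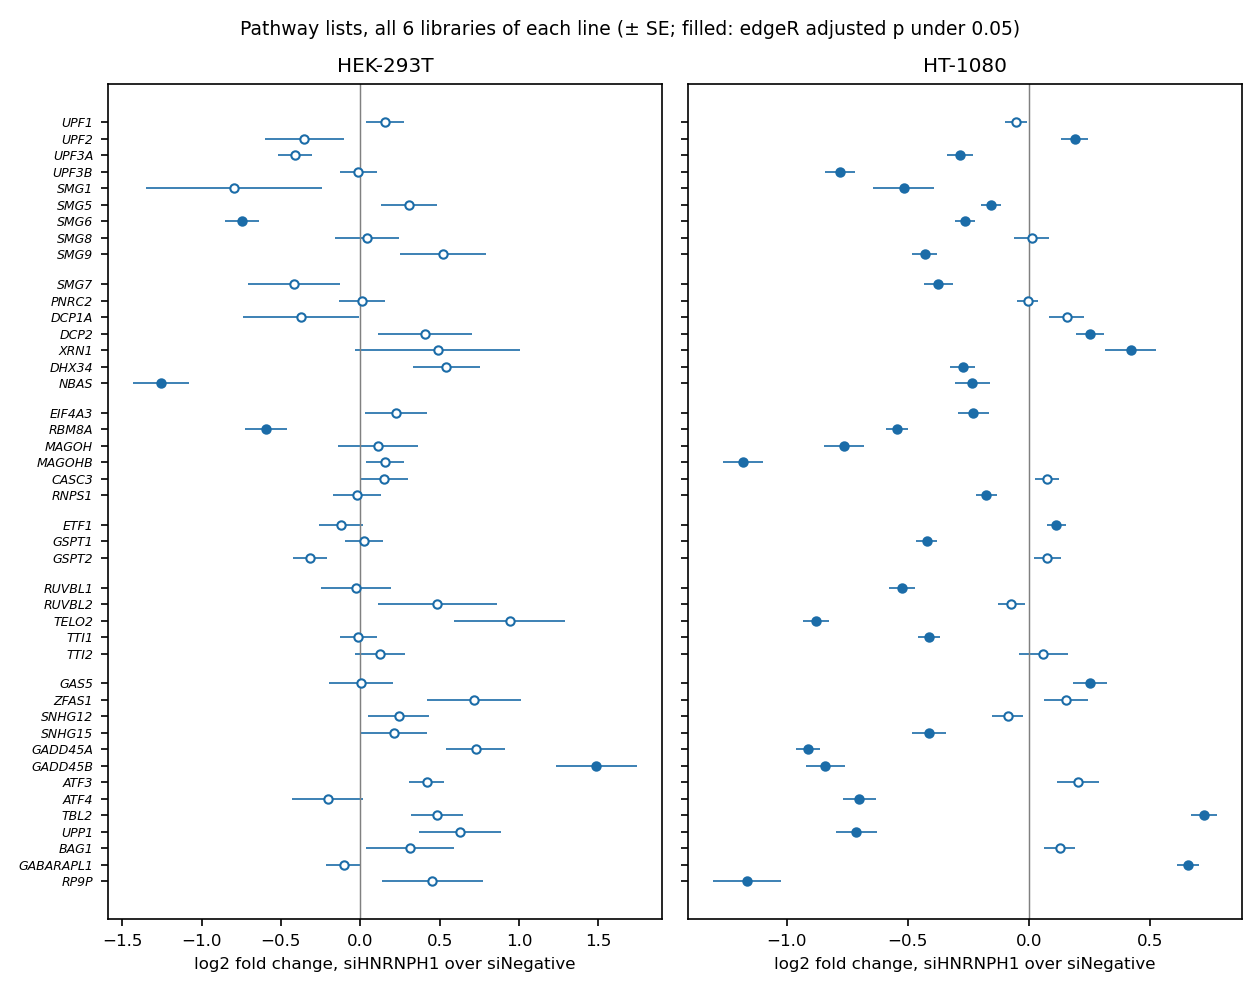
Log2 fold change (horizontal axis, ± SE) of the 9 factors and, below them, the other effectors, exon junction complex, release factors, kinase assembly genes and degraded RNAs, in HEK-293T (left) and HT-1080 (right) with all 6 libraries; filled points have an edgeR adjusted p under 0.05. In HEK-293T 4 points are filled (SMG6, NBAS, RBM8A, GADD45B).

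By Pearson r of log2(CPM + 1) over the 12 libraries, the most similar gene among 12120 candidates was BPTF for UPF2 (0.991), ENO2 for UPF3A (0.998), CSE1L for UPF3B (0.998), ARPIN-AP3S2 for SMG5 (0.998), AKIRIN2 for SMG6 (0.986), SRBD1 for SMG8 (0.998) and MED27 for SMG9 (0.986). For UPF1 the highest r was 0.827, with ARHGAP39. UPF1 stayed within 138 to 171 CPM, and so narrow a range can lower r, so this value does not show that it lacks a companion. The r values describe 12 libraries that share the difference between the lines and, in HEK-293T, replicate 1.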

How the data were processed

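Short-read RNA-seq (12 libraries) and IsoSeq pools (4) were analysed. The authors deposited expected counts per transcript estimated with RSEM on GRCh38.p13, per the submitters' processing notes and the labels; version, aligner, annotation release and strandedness are not given in the sources used here. The deposited IsoSeq files list exon positions of collapsed models, per the file headers and names.

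Transcript values were added up within each gene, then rounded to whole counts. Genes past filterByExpr were scaled by TMM and tested with edgeR 4.0.16 (robust quasi-likelihood test, two-sided, R 4.3.3) within each line, and over 12 libraries for the interaction and the siNegative contrast. Transcript usage was tested with limma 3.58.1 (voom, diffSplice). P-values were Benjamini-Hochberg adjusted over all features, with a threshold of 0.05. DESeq2 1.42.0, other scalings, no filter, left-out libraries, a replicate block, diffSpliceDGE and arcsine shares were alternatives. The steps were tested on simulated data, where diffSplice also called unchanged genes; shares per library are therefore printed. The SE given with edgeR values is the absolute log2 fold change divided by the square root of the F statistic. CPM uses library totals without TMM. Library totals were 27.3 to 121 M expected counts.

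Named were all 9 members, per line the transcript of each with the largest change in share, pathway genes called in both lines, and the most similar gene; the similar gene of SMG1 and the HT-1080 marker sum are not reported here. Members and lists were chosen with earlier results of these data known. All pairs of libraries within a group differed beyond sampling noise. No transcript biotypes or sequences were used.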

Additional observations from a re-analysis of the deposited data

Results flagged for a closer look

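The effect of siHNRNPH1 differed between the lines by a test of the difference itself (interaction in edgeR) for 3 factors. For UPF3B the difference in log2 fold change, HT-1080 minus HEK-293T, was -0.84 (edgeR adjusted p = 4.3e-04), and all 3 HT-1080 siHNRNPH1 libraries were below their controls. SMG6 had 0.41 (edgeR adjusted p = 0.0237), with all 3 siHNRNPH1 libraries below the controls in both lines. SMG9 had -1.04 (edgeR adjusted p = 0.0383), with all siHNRNPH1 libraries above the controls in HEK-293T and below them in HT-1080. With 1 library left out, the edgeR adjusted p lay between 1.4e-08 and 0.0035 for UPF3B, and reached 0.0775 for SMG6 and 0.0926 for SMG9.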

How the results depend on the processing

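Which factors pass depended most on HEK-293T siHNRNPH1 replicate 1. The HEK-293T count of 1 became 2 with DESeq2, 2 in the fit of all 12 libraries and 0 with the replicate block, and lay between 0 and 7 when 1 library was left out. Over all genes, 1997 HEK-293T calls became 12557 without that replicate, 3982 with DESeq2, 4550 in the 12-library fit, 1302 with no filter and 0 with the block (edgeR; 4169 at an unadjusted p under 0.05). The HT-1080 count of 7 became 3 in the fit of all 12 libraries, which lost UPF2, SMG1, SMG5 and SMG9, and 6 to 8 with a library left out. The 12-library fit takes its spread from both lines, HEK-293T siHNRNPH1 replicate 1 included. Over all genes, 10538 HT-1080 calls among 16145 tested became 6237 among 21276 in the 12-library fit. With a library left out they were 9535 to 11625. The count of differences between the lines (3) became 1 with the replicate block (edgeR adjusted p = 0.0128 for UPF3B, 0.103 for SMG6, 0.0667 for SMG9) and 1 to 7 with a library left out; UPF3B was called in each of these fits. Over all genes, 4034 differences between the lines became 2535 with the block and 2772 to 9535 with a library left out. The siNegative contrast gave 7 to 9. Over all genes that contrast had 15379 calls, and 13392 to 17082 with a library left out. Usage calls in HEK-293T (0) became 1 with arcsine shares and 0 to 2 with a library left out. Those in HT-1080 (4) became 0 with diffSpliceDGE, 1 with arcsine shares and 1 to 3 with a library left out. Over all genes, the 1114 usage calls in HEK-293T became 316 to 5296 with a library left out. The 2112 in HT-1080 became 1373 to 2025, 550 with diffSpliceDGE and 961 with arcsine shares. Signs turned for small values: UPF3B in HEK-293T (0.017 with library size alone, -0.051 to 0.041 with a library left out, 0.048 in the 12-library fit), SMG8 in HEK-293T (-0.052 and -0.077 without siHNRNPH1 replicates 2 and 3; up to 0.23 without replicate 1), UPF1 in HT-1080 (0.014 with library size alone), SMG8 in HT-1080 (-0.0078 with no filter, -0.045 to 0.062 with a library left out, -0.00017 in the 12-library fit), and the differences between lines of UPF3A (-0.0016 to 0.096 with a library left out), SMG1 (-0.21 without HEK-293T siHNRNPH1 replicate 1, up to 0.52 without replicate 3) and SMG8 (0.00078 with library size alone); the cause was not tested. Scaling by library size alone moved the HT-1080 split of calls from 5274 higher and 5264 lower to 5943 and 4588, and the median of the siNegative contrast from -0.11 to -0.33. Same-numbered libraries had low correlations of their deviations (r of 0.087, 0.098 and 0.023 in HEK-293T and -0.0019, 0.085 and 0.032 in HT-1080). Libraries of different number had -0.089 to 0.063 in HEK-293T and -0.096 to 0.062 in HT-1080. For each HEK-293T control the same-numbered value was the highest, so pairing is not excluded. Replicate numbers were not treated as pairs, and the replicate block is the alternative. The planned readout by transcript biotype was not run, since no annotation of biotypes was used. A minimum of 10 spanning models per junction was added after seeing the data.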
